A study of Mus musculus with 6 samples.

Results

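Kruppel-like factors (KLFs) are transcription factors that bind GC-rich and CACCC elements through zinc fingers at their C terminus, and their N-terminal parts recruit either coactivators or corepressors. In the endothelium KLF2 and KLF4 are the best known members. Laminar blood flow induces both through a kinase cascade that ends on MEF2 factors, and they raise vasoprotective genes such as *Nos3* and *Thbd* and lower adhesion and clotting genes such as *Vcam1* and *F3*. Other members act differently: KLF3 is mainly a repressor that binds the corepressor CtBP, KLF9 and KLF13 bind SIN3A, KLF10 was first described as an early gene induced by TGF-beta, and KLF6 is an early response gene of injured endothelium.

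The 8 KLF genes described here, *Klf2*, *Klf3*, *Klf4*, *Klf6*, *Klf7*, *Klf9*, *Klf10* and *Klf13*, were found by gene symbol among 55416 annotated genes, and all 8 were among the 16296 genes with enough counts to be tested. They were measured by RNA-Seq of endothelial cells (ECs) sorted by FACS for membrane GFP from E15.5 mouse heart ventricles, in 3 libraries of Wt1KOΔEC embryos (Pdgfb-CreERT2/+; Wt1-loxP/loxP; R26-mTmG/+) and 3 of ControlΔEC embryos (Pdgfb-CreERT2/+; Wt1+/+; R26-mTmG/+). All 6 libraries therefore carried the Pdgfb-driven, tamoxifen-inducible Cre (named iCreERT2 in the study's methods) and the mTmG reporter, and tamoxifen (75 mg/kg) was given to all dams between E11.5 and E13.5. The comparison asked how the loss of *Wt1* in ECs, while the coronary plexus forms, alters their transcripts. The labels call the libraries biological replicates, and whether hearts were pooled within a library is not given in the sources used here.

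The libraries held between 26037324 and 44779020 estimated counts. Levels are given as CPM, each gene's count scaled by the library's total and TMM factor. *Wt1* itself was at 145, 110 and 149 CPM in ControlΔEC replicates 1, 2 and 3 and at 14, 18.4 and 21.3 CPM in Wt1KOΔEC replicates 1, 2 and 3 (log2 fold change -2.91, adjusted p = 0.00319 from edgeR). The 8 endothelial marker genes summed to between 4540 and 5770 CPM in ControlΔEC and between 4690 and 5400 CPM in Wt1KOΔEC. Among them, *Emcn* was higher in every Wt1KOΔEC library (means 343 and 455 CPM) and *Kdr* lower in every one (means 1140 and 931 CPM). Of all genes tested, 10.3% were likewise higher and 8.97% lower. The share of counts on *Rn18s* was 13.2 to 15.3% in ControlΔEC and 21.1 to 26.5% in Wt1KOΔEC, and that on mitochondrially encoded genes 5.21 to 6.61% and 1.68 to 4.57%, so both shares moved with genotype. The library codes in the labels form one series for each genotype, and if these mark separate preparations, preparation and genotype cannot be told apart. Summed marker levels in ControlΔEC and Wt1KOΔEC were 310 to 393 and 665 to 757 CPM for endocardium, and 267 to 283 and 277 to 370 CPM for lymphatic endothelium. They were 678 to 979 and 1340 to 1550 CPM for fibroblasts, 11 to 17.5 and 16.1 to 48.6 CPM for epicardium, and 102 to 139 and 72.3 to 177 CPM for cardiomyocytes. The endocardial sum rose mainly with *Plvap*, at a mean of 68.1 CPM in ControlΔEC and 338 CPM in Wt1KOΔEC (log2 fold change 2.31, adjusted p = 0.00319 from edgeR). *Cdh11* was also higher in every Wt1KOΔEC library (means 77 and 137 CPM). *Nfatc1* (184 and 219 CPM) and *Npr3* (8.96 and 18.1 CPM) overlapped between the genotypes. Whether this sum reports endocardial cells was not tested.

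*Klf3* was, among the 8 KLF genes, the one whose level differed most between the genotypes. Its fitted level in Wt1KOΔEC was 0.462 times that in ControlΔEC (95% interval 0.292 to 0.731), but the difference did not pass the test across all genes in edgeR. The other 7 KLF genes lay within 0.33 of no change on the log2 scale, and the libraries of the genotypes overlapped for each of them. None of the 8 was a differentially expressed gene (DEG), which here means an adjusted p under 0.05 with a log2 fold change beyond 0.58 in either direction, and 0.0736% of all genes tested were. At an unadjusted p under 0.05, 1 of the 8 was lower and 0 were higher in Wt1KOΔEC, where 7.12% of all genes were lower and 5.96% higher by that rule. With the fold limit added, the 1 remained and 10.1% of all genes were called. Fold changes are Wt1KOΔEC over ControlΔEC, and p-values here and below come from edgeR's quasi-likelihood test, with Benjamini-Hochberg adjustment over all genes tested, unless DESeq2 is named. The median log2 fold change of the 8 KLF genes was -0.07, beside -0.027 over all genes.

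*Klf3* (ENSMUSG00000029178.15; GRCm39 chromosome 5, 64959875 to 64990261, plus strand) was at 195, 160 and 77.7 CPM in ControlΔEC replicates 1, 2 and 3 and at 65.2, 65.6 and 69.4 CPM in Wt1KOΔEC replicates 1, 2 and 3. Every ControlΔEC library was above every Wt1KOΔEC library, but ControlΔEC replicate 3 lay close to the mutant values, at 1.12 times the highest of them. The spread was unequal, with a coefficient of variation of 41.7% among the ControlΔEC libraries and 3.50% among the Wt1KOΔEC libraries. The mean was 144 ± 60.1 CPM in ControlΔEC and 66.7 ± 2.33 CPM in Wt1KOΔEC (SD, n = 3 libraries), a log2 fold change of -1.11 (standard error, SE, 0.29, 95% interval -1.77 to -0.45). Its unadjusted p was 0.00413, number 317 in the order of all genes, and its adjusted p from edgeR was 0.209. With DESeq2 on the same genes *Klf3* was a DEG, with a log2 fold change of -1.12 and an adjusted p of 0.00763, and so were 3.68% of all genes (2.02% lower and 1.66% higher). *Klf3* was the only KLF gene of the 8 whose genotypes did not overlap (8.97% of all genes tested were likewise lower in every Wt1KOΔEC library, and 10.3% higher). In sorted bulk cells, fewer cells that express a gene and less RNA of it per cell cannot be told apart.

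**Figure D1:**
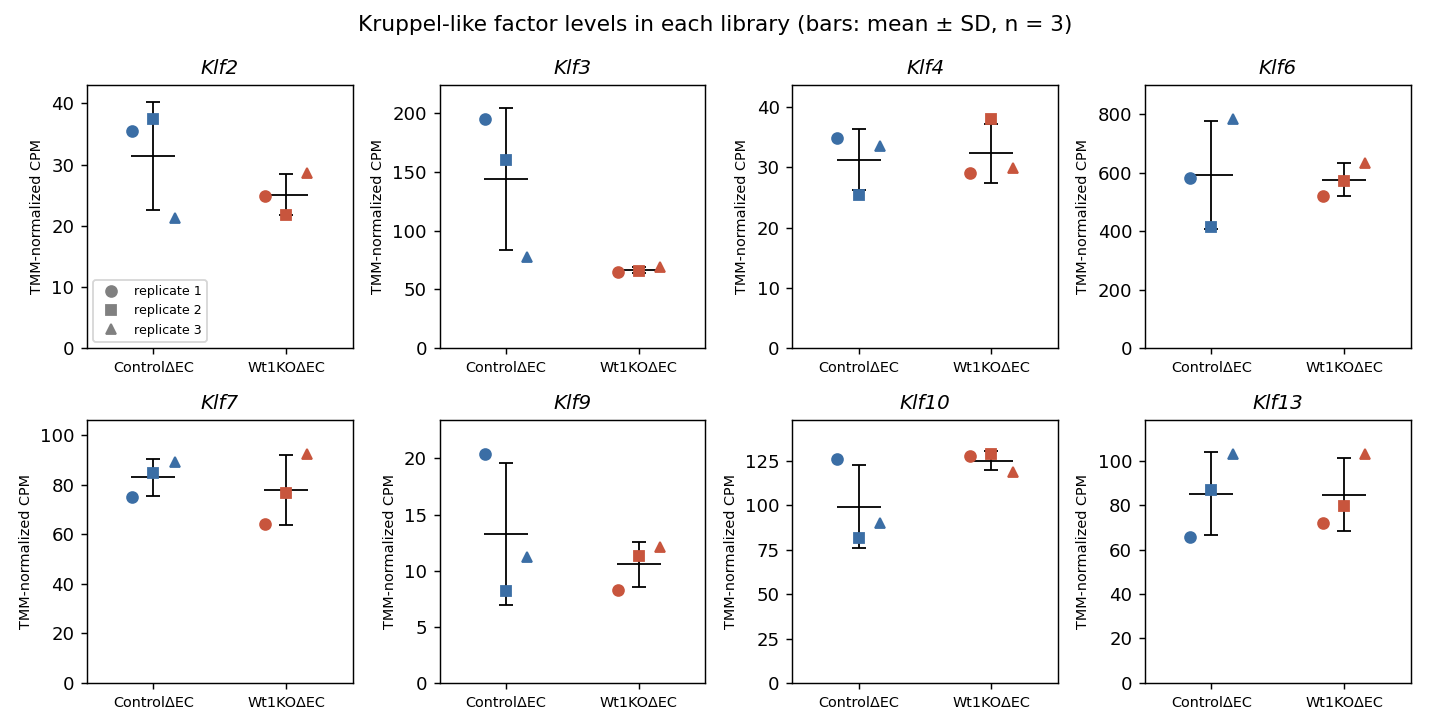
TMM-normalized CPM (y axes, each starting at 0) of the 8 KLF genes in the 3 ControlΔEC (blue) and 3 Wt1KOΔEC (red) libraries; symbols mark the replicate number and bars the mean ± SD. *Klf3* is the only panel in which the genotypes do not overlap, and its ControlΔEC replicate 3, at 77.7 CPM, lies next to the Wt1KOΔEC libraries at 65.2 to 69.4 CPM.

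The size of the *Klf3* difference depended on the ControlΔEC libraries. Its log2 fold change was -0.83 (adjusted p = 0.309 from edgeR) without ControlΔEC replicate 1 and -1.41 without ControlΔEC replicate 3, where *Klf3* became a DEG (adjusted p = 0.0287 from edgeR). Leaving out any of the Wt1KOΔEC libraries gave values between -1.14 and -1.10. Relative to *Klf7*, 1 family member picked as a reference, *Klf3* stood at 2.60, 1.89 and 0.870 times the *Klf7* CPM in the ControlΔEC libraries and at 1.02, 0.857 and 0.752 times in the Wt1KOΔEC libraries. By this ratio within each library, ControlΔEC replicate 3 fell among the Wt1KOΔEC libraries and the genotypes overlapped. That overlap depended on the reference. By mean CPM over the 6 libraries, *Klf10* (112) was nearer to *Klf3* (105) than *Klf7* (80.3) was. *Klf10* was at 90.3 CPM in ControlΔEC replicate 3 and at 119 to 129 CPM in Wt1KOΔEC. A ratio to *Klf10* would thus keep ControlΔEC replicate 3 above every Wt1KOΔEC library.

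The summed macrophage and mural cell markers were, like *Klf3*, lower in every Wt1KOΔEC library than in any ControlΔEC library, whereas the fibroblast and endocardial sums given above were higher. Of the 7 fibroblast markers, 5 were higher at an unadjusted p under 0.05 (5.96% of all genes). *Col3a1* and *Col1a1* had log2 fold changes of 0.97 and 1.34, and *Lum* and *Postn* of 0.04 and -0.16. The paper counts *Col1a1*, *Col3a1* and *Dcn* among venous markers, and *Col1a1* among fibroblast genes too. Whether the fibroblast sum reports fibroblasts was not tested. The 6 macrophage markers summed to 324, 607 and 209 CPM in ControlΔEC replicates 1, 2 and 3 and to 159, 202 and 119 CPM in Wt1KOΔEC replicates 1, 2 and 3. All 6 had a negative log2 fold change, beside 8474 of 16296 over all genes. At an unadjusted p under 0.05, 5 of the 6 were lower, beside 7.12% of all genes. The 7 mural cell markers summed to 595, 464 and 628 CPM in ControlΔEC and to 377, 330 and 321 CPM in Wt1KOΔEC. Of the 6 tested, 4 were lower at an unadjusted p under 0.05. They were *Rgs5*, *Abcc9*, *Pdgfrb* and *Cspg4*, with log2 fold changes of -2.5, -0.41, -1.25 and -1.22. *Acta2* was at a mean of 45.3 CPM in ControlΔEC and 44.2 CPM in Wt1KOΔEC (log2 fold change -0.04). *Myh11* had too few counts for the test. The paper counts *Rgs5* and *Kcnj8* among arterial genes, and whether this sum reports mural cells was not tested. The 7 erythroid markers summed to 8720, 14300 and 6570 CPM in ControlΔEC and to 7830, 5100 and 8490 CPM in Wt1KOΔEC, and these sums overlapped. The erythroid markers differed in direction: 2 were lower and 1 was higher at an unadjusted p under 0.05 (7.12% and 5.96% of all genes). *Alas2*, for heme synthesis, and *Hbb-bt*, an adult globin gene, had log2 fold changes of -1.15 and -0.79, and the embryonic globin gene *Hbb-y* was at 27.7, 43.5 and 7.38 CPM in ControlΔEC and 183, 102 and 184 CPM in Wt1KOΔEC (log2 fold change 2.57). None of the macrophage and erythroid markers was at 0 in all libraries. *Klf1*, which encodes the erythroid KLF, had no count in 4 of the 6 libraries and at most 7 counts in the others. The part of these cells in the *Klf3* difference was not tested. Among the ControlΔEC libraries, replicate 3 had the lowest *Klf3*, macrophage and erythroid values and the highest mural cell sum.

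**Figure D2:**
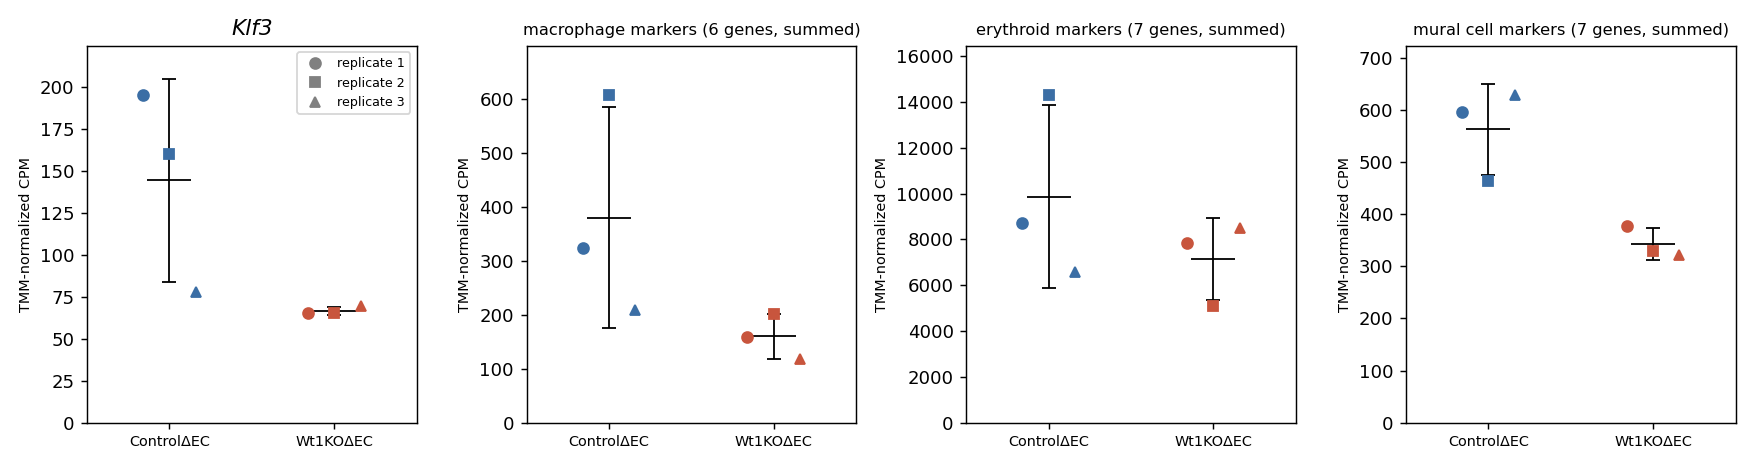
TMM-normalized CPM (y axes, starting at 0) of *Klf3* and the summed CPM of the macrophage, erythroid and mural cell marker lists in each library (ControlΔEC blue, Wt1KOΔEC red; symbols mark the replicate number, bars the mean ± SD). Like *Klf3*, the macrophage and mural cell sums do not overlap between genotypes, whereas the erythroid sums, from 5100 to 14300 CPM, do.

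The sequences just before the annotated start of *Klf3*, and of the flow-induced *Klf2* and *Klf4*, are shown because these 3 of the 8 promoters held GCGGGGGCG, a site that WT1 shares with EGR factors. Each is 250 bases of GRCm39 that end at the base before the start of the Ensembl canonical transcript in GENCODE vM39, written 5′ to 3′ on the strand of the gene (*Klf3*, chr5:64960457-64960706, plus strand; *Klf2*, chr8:73072476-73072725, plus strand; *Klf4*, chr4:55532467-55532716, minus strand). Capitals mark matches, on either strand, to any of the motifs searched. These were the shared site above, a shorter core bound by WT1 (GCGTGGG), the GC box that Sp factors and KLFs bind (GGGCGG), and the classical KLF element found in the globin promoters (CACCC). The others were the site of AP-1 dimers (TGANTCA), the cyclic AMP response element known as CRE (TGACGTCA) and a MEF2 site.

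Klf3 promoter: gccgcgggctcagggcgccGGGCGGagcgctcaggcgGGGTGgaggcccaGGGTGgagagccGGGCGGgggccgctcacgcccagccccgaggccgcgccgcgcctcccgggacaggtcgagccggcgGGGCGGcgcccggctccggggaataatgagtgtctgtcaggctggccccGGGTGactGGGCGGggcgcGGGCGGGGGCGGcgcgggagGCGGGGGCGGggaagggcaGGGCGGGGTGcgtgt

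Klf2 promoter: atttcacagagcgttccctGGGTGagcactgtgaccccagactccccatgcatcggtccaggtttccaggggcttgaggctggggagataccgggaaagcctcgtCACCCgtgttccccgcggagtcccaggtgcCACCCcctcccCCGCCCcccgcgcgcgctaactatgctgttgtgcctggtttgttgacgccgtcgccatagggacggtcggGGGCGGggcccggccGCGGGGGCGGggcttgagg

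Klf4 promoter: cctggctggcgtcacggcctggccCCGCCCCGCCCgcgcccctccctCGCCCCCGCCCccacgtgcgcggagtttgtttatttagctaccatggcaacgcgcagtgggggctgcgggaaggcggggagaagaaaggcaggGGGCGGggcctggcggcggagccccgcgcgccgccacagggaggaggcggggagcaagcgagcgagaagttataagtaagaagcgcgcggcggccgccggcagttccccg

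Over the 13787 promoters of protein-coding genes tested, 3.20% held the site shared by WT1 and EGR factors, 47.8% a GC box and 56.4% a CACCC box. *Klf3* had 2 matches to the shared site, both overlapping GC boxes, together with 8 GC boxes and 4 CACCC boxes. *Klf2* and *Klf4* had 1 match each, also overlapping a GC box. These promoters were rich in G and C, at 82.4% in *Klf3*, 68.8% in *Klf2* and 73.6% in *Klf4*, beside a median of 56.4% over all promoters compared. GC boxes were found in 7 of the 8 KLF promoters, all but that of *Klf9*, and CACCC boxes in 4. The WT1 core, the AP-1 site and the CRE were in none of the 8 (5.98%, 4.74% and 1.97% of all promoters), and the MEF2 site was only in that of *Klf6* (2.97%). These are matches of letters in 1 window per gene, not binding sites, and the files hold no measurement of binding.

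*Klf2* and *Klf4*, the flow-responsive pair, were of similar abundance in these cells and neither differed beyond its spread. *Klf2* (ENSMUSG00000055148.8; chromosome 8, 73072726 to 73075502) was at 35.5, 37.4 and 21.3 CPM in ControlΔEC replicates 1, 2 and 3 and at 24.9, 21.8 and 28.6 CPM in Wt1KOΔEC replicates 1, 2 and 3. As with *Klf3*, ControlΔEC replicate 3 was the lowest control, here below every Wt1KOΔEC library. The log2 fold change of *Klf2* was -0.33 (SE 0.26, 95% interval -0.91 to 0.26, adjusted p = 0.686), so the interval held anything from 0.531 to 1.20 times the ControlΔEC level.

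*Klf4* (ENSMUSG00000003032.9; chromosome 4, 55527139 to 55532528) was at 34.9, 25.5 and 33.5 CPM in ControlΔEC and 29.1, 38.0 and 29.9 CPM in Wt1KOΔEC. The highest and the second lowest of the 6 values were both in Wt1KOΔEC, and the log2 fold change was 0.05 (SE 0.22, 95% interval -0.45 to 0.54, adjusted p = 0.968). Per kb of exon, the *Klf2* level was 1.5, 2.17 and 0.940 times that of *Klf4* in the ControlΔEC libraries and 1.26, 0.848 and 1.41 times in the Wt1KOΔEC libraries. Which of the 2 was more abundant thus varied within both genotypes.

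*Klf6* (ENSMUSG00000000078.8; chromosome 13, 5911481 to 5920393) was the most abundant KLF gene in every library. It was at 580, 413 and 782 CPM in ControlΔEC replicates 1, 2 and 3 and at 521, 570 and 634 CPM in Wt1KOΔEC replicates 1, 2 and 3. The ControlΔEC libraries enclosed the Wt1KOΔEC libraries on both sides, and the log2 fold change was -0.04 (SE 0.22, 95% interval -0.55 to 0.46). *Klf10* (ENSMUSG00000037465.11; chromosome 15, 38291703 to 38300959), the TGF-beta inducible member, was at 126, 81.8 and 90.3 CPM in ControlΔEC and 128, 129 and 119 CPM in Wt1KOΔEC. A single library, ControlΔEC replicate 1, kept the genotypes from separating. The log2 fold change of *Klf10* was 0.33 (SE 0.19, 95% interval -0.09 to 0.75, adjusted p = 0.514), the most positive of the 8.

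*Klf9* and *Klf13* encode KLFs that bind the SIN3A corepressor. *Klf9* (ENSMUSG00000033863.3; chromosome 19, 23118187 to 23148497), a hormone-responsive gene, was the least abundant of the 8, at 20.4, 8.21 and 11.2 CPM in ControlΔEC and 8.31, 11.3 and 12.1 CPM in Wt1KOΔEC. ControlΔEC replicate 1 stood above the other 5 libraries, which ranged together, and without it the log2 fold change of -0.33 (95% interval -1.19 to 0.53) became 0.13. *Klf13* (ENSMUSG00000052040.11; chromosome 7, 63536099 to 63588663) was at 65.6, 87.0 and 103 CPM in ControlΔEC and 71.8, 79.4 and 103 CPM in Wt1KOΔEC, almost the same range in both genotypes (log2 fold change -0.01, 95% interval -0.50 to 0.47). *Klf7* (ENSMUSG00000025959.14; chromosome 1, 64068606 to 64161508), known from neuronal development, was at 74.9, 84.7 and 89.3 CPM in ControlΔEC and 64.2, 76.5 and 92.4 CPM in Wt1KOΔEC. Its libraries overlapped too, with a log2 fold change of -0.10 (95% interval -0.50 to 0.31).

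**Figure D3:**
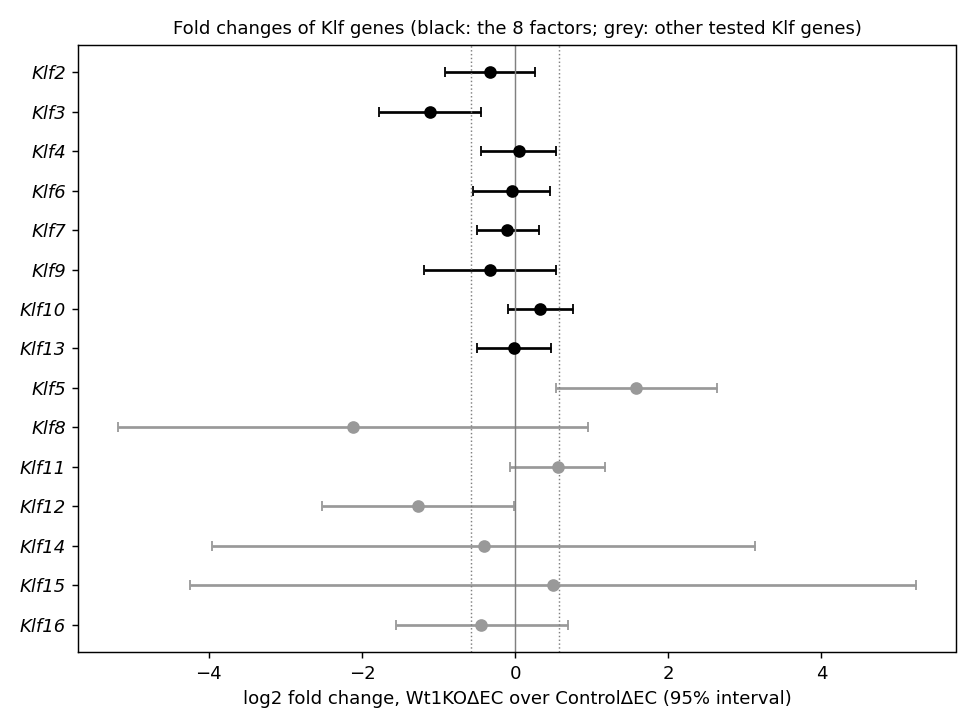
Log2 fold change of Wt1KOΔEC over ControlΔEC (x axis; points with 95% intervals from edgeR's quasi-likelihood fit) for the 8 KLF genes (black) and the 7 other *Klf* genes tested (grey), with dotted lines at the limit of 0.58. Among the 8, only the interval of *Klf3* (-1.77 to -0.45) leaves out 0, and the intervals of low genes such as *Klf15* are far wider.

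Levels can be compared between genes only per length, and the order then depended on the gene model. Per kb of all annotated exons, *Klf6* was at 132 ± 41.3 CPM per kb in ControlΔEC and 129 ± 12.7 in Wt1KOΔEC (SD, n = 3), number 194 of 16238 genes with a length by the mean over the 6 libraries. *Klf10* followed at 23.7 ± 5.61 and 29.8 ± 1.32 CPM per kb, and the ranges of these 2 genes over all libraries did not meet. *Klf2*, *Klf13*, *Klf4*, *Klf7* and *Klf3* came next, from 14.7 down to 9.62 CPM per kb in ControlΔEC, and no neighbours among these 5 were separated over the 6 libraries. *Klf9* was last at 1.61 ± 0.773 and 1.29 ± 0.245 CPM per kb, below every value of *Klf3*. *Klf3* has 14998 bases of annotated exon in 27 transcripts, of which the canonical transcript holds 5262. Per kb of canonical transcript it was at 27.4 CPM per kb in ControlΔEC and 12.7 in Wt1KOΔEC, which moved it from position 7 to position 3 of the 8.

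**Figure D4:**
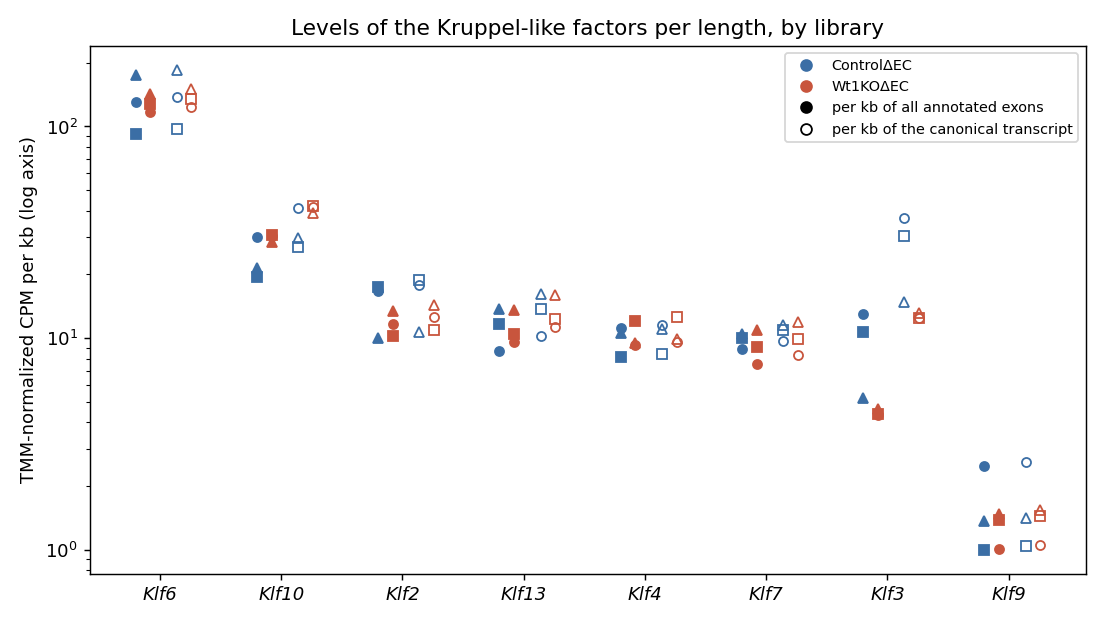
CPM per kb (log y axis) of the 8 KLF genes in each library, per kb of all annotated exons (filled) and of the canonical transcript (open), with ControlΔEC in blue and Wt1KOΔEC in red and symbols for the replicates as in the plot of CPM by library. *Klf6* lies above and *Klf9* below the other 6 genes by either length, and only *Klf3* changes its place widely.

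Summed over the 8 genes, KLF transcripts made 221, 171 and 248 CPM per kb of exon in the ControlΔEC libraries and 190, 206 and 224 in the Wt1KOΔEC libraries. *Klf6* alone made between 54.1% and 70.6% of that sum. *Klf3* made 5.88%, 6.26% and 2.09% of it in ControlΔEC replicates 1, 2 and 3 and between 2.07% and 2.28% in Wt1KOΔEC. The highest of the 6 libraries was 1.44 times the lowest for *Klf7*, 1.49 times for *Klf4*, 2.49 times for *Klf9* and 2.99 times for *Klf3*. The coefficient of variation was larger among the ControlΔEC than among the Wt1KOΔEC libraries for 7 of the 8, all but *Klf7*. For *Klf4* the values were close, at 16.2% and 15.2%, and the same count over all genes was not made. A mean chi-square per gene was taken over all genes tested, on counts scaled by the library total only. It was 92.3 to 147 between pairs of ControlΔEC libraries and 57.1 to 89.8 between pairs of Wt1KOΔEC libraries. Between replicates 1 and 3 it was 92.3 in ControlΔEC and 89.8 in Wt1KOΔEC. This measure grows with depth, which differed between the pairs. It therefore cannot tell whether the ControlΔEC libraries varied more over all genes.

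Antisense genes overlap some KLF exons in GENCODE vM39, and neither the labels nor the methods state a strand-specific library. *Gm20033*, which shares 643 exonic bases with *Klf3*, was at no more than 0.198 CPM in any library, and *Gm35248*, which shares 62 with *Klf10*, at no more than 0.140 CPM. *Gm13748*, which shares 7 exonic bases with *Klf7*, was at 0 in all libraries, and *Gm56648*, which shares 333 with *Klf9*, was not analysed here, so its part in the *Klf9* counts is unknown.

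Genes with the most similar profile were sought by the root mean square difference of log2 CPM, centred on each gene's mean, over the 6 libraries and 8470 genes with a mean of at least 10 CPM. For *Klf3* they were *Arl2bp* (0.0783 on the log2 scale), *Ccdc88a* (0.128) and *Slain2* (0.132). *Arl2bp* was at 47.1, 41.3 and 20.6 CPM in ControlΔEC and 16.9, 15.3 and 19.1 CPM in Wt1KOΔEC, with the same low ControlΔEC replicate 3. For *Klf2* they were *Zfp646* (0.0800), *Itgb1bp1* (0.0883) and *Ube2e3* (0.102), and for *Klf4* *Ppme1* (0.0263), *Tmem98* (0.0522) and *Usp19* (0.0654). For *Klf6* they were *Wsb1* (0.0357), *Arl6ip5* (0.0640) and *Nup50* (0.0660), and for *Klf10* *Tspan3* (0.0429), *Akr1b3* (0.0455) and *Pkig* (0.0508). *Klf7* was nearest to *Ing1* (0.0433), *Arl8b* (0.0599) and *Igf2bp3* (0.0709), *Klf9* to *Mertk* (0.125), *Sardh* (0.138) and *Cpa1* (0.141), and *Klf13* to *Luc7l3* (0.0567), *Srsf11* (0.0753) and *Efcab14* (0.0782).

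None of the remaining *Klf* genes was a DEG. Of 9 in the table, 7 were tested, and *Klf1* and *Klf17* had too few counts. *Klf5*, known from smooth muscle and epithelia, was at 2.52, 2.98 and 4.92 CPM in ControlΔEC and 7.09, 8.76 and 15.4 CPM in Wt1KOΔEC. All of its Wt1KOΔEC libraries were higher (log2 fold change 1.58 with a standard error of 0.47, unadjusted p = 0.008 and adjusted p = 0.233 from edgeR). *Klf12*, a repressor that also binds CtBP, was at 8.49, 14.3 and 13.2 CPM in ControlΔEC and 2.71, 9.60 and 2.61 CPM in Wt1KOΔEC, with a log2 fold change of -1.27 (SE 0.55, adjusted p = 0.378 from edgeR). *Klf11*, the closest relative of *Klf10*, was at 34.9, 25.9 and 57.6 CPM in ControlΔEC and between 57.1 and 58.9 CPM in Wt1KOΔEC (log2 fold change 0.56, adjusted p = 0.436 from edgeR). *Klf8* was low throughout, at 5.52, 2.03 and 1.94 CPM in ControlΔEC and 1.13, 0 and 1.07 CPM in Wt1KOΔEC. These values did not overlap (8.97% of all genes were likewise lower). *Klf8* and *Klf16* had log2 fold changes of -2.11 (95% interval -5.18 to 0.95) and -0.44 (-1.56 to 0.69). *Klf14* and *Klf15*, at no more than 4.33 CPM in any library, had intervals from -3.96 to 3.13 and from -4.24 to 5.23. Of the related Sp factors, 5 of 9 were tested, with log2 fold changes from -0.14 for *Sp5* to 0.28 for *Sp2*; *Sp1*, *Sp3* and *Sp4* were at 0.24, 0.11 and 0.11. None of them had an unadjusted p under 0.05.

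The genes known to act upstream of *Klf2* and *Klf4* included both activators, such as the kinases and MEF2 factors of the flow response, and genes that restrain them, those of the CCM complex and *Hdac5* and *Hdac7*. None of the 14, all tested, was a DEG. Of them 11 had a negative log2 fold change, beside 8474 of 16296 over all genes, and their median was -0.29. At an unadjusted p under 0.05, 1 of the 14 was lower, beside 7.12% of all genes. This was *Mef2c*, a transcription factor gene at the end of the cascade. *Mef2c* was at 198, 204 and 239 CPM in ControlΔEC and 162, 170 and 175 CPM in Wt1KOΔEC (log2 fold change -0.34 with a standard error of 0.15, adjusted p = 0.368 from edgeR). *Mef2a*, *Heg1*, which encodes a receptor of the CCM complex, and the mechanosensitive channel gene *Piezo1* had log2 fold changes of -0.25, -0.26 and -0.52. Among 9 genes for KLF cofactors and ubiquitin ligases, 8 had negative log2 fold changes (median -0.27). At an unadjusted p under 0.05, 1 of them was lower, beside 7.12% of all genes. *Kat2b*, which encodes an acetyltransferase, was at 7.77, 10.9 and 7.94 CPM in ControlΔEC and 4.73, 2.55 and 3.64 CPM in Wt1KOΔEC (log2 fold change -1.28 with a standard error of 0.43, adjusted p = 0.267 from edgeR). *Ctbp1*, for the corepressor that KLF3 recruits, had a log2 fold change of -0.41 (95% interval -0.88 to 0.07), and *Sin3a*, *Sin3b* and *Crebbp* had log2 fold changes of -0.46, 0.05 and -0.20.

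The genes that KLF2 and KLF4 are known to regulate in ECs were counted in the same way. Of 9 genes they induce, 5 had positive and 4 negative log2 fold changes (median 0.32). At an unadjusted p under 0.05, 1 was higher and 1 lower, beside 5.96% and 7.12% of all genes. For 2 of the 9, *Bmp6* and *Ptgds*, every Wt1KOΔEC library was above every ControlΔEC library, and for 1, *Nos3*, below (10.3% and 8.97% of all genes). *Ptgds*, at no more than 2.57 CPM in any library, had a log2 fold change of 2.92 (95% interval -0.07 to 5.9). Over all genes, 7822 of 16296 were positive. *Nos3*, the endothelial nitric oxide synthase gene, was at 555, 705 and 516 CPM in ControlΔEC and 386, 504 and 378 CPM in Wt1KOΔEC (log2 fold change -0.49 with a standard error of 0.18, adjusted p = 0.31 from edgeR). *Bmp6* had the opposite sign, at 1.09, 2.35 and 2.67 CPM in ControlΔEC and 6.29, 4.38 and 7.08 CPM in Wt1KOΔEC (log2 fold change 1.54 with a standard error of 0.57, adjusted p = 0.309 from edgeR). *Thbd* (0.32), *Tek* (-0.21) and *Gja4* (-0.37 on the log2 scale) had 95% intervals that held 0.

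Of 8 genes that KLF2 and KLF4 lower, 7 had positive log2 fold changes, 3 with an unadjusted p under 0.05 (5.96% of all genes in that direction), and the median was 0.49. For 4 of the 8, every Wt1KOΔEC library was above every ControlΔEC library (10.3% of all genes). *Vcam1*, an adhesion molecule for leukocytes, was at 44.4, 54.3 and 57.0 CPM in ControlΔEC and 109, 110 and 96.5 CPM in Wt1KOΔEC (log2 fold change 1.02 with a standard error of 0.16, adjusted p = 0.102 from edgeR). The tissue factor gene *F3* was at 4.16, 2.92 and 3.92 CPM in ControlΔEC and 15.6, 9.74 and 13.2 CPM in Wt1KOΔEC (log2 fold change 1.81 with a standard error of 0.37, adjusted p = 0.117 from edgeR). The chemokine gene *Ccl2* was at 10.6, 8.47 and 13.7 CPM in ControlΔEC and 31.8, 19.9 and 20.2 CPM in Wt1KOΔEC (log2 fold change 1.14 with a standard error of 0.30, adjusted p = 0.209 from edgeR). None of these 3 was a DEG with edgeR and all 3 were with DESeq2. *Edn1*, for the vasoconstrictor endothelin-1, was the other gene without overlap, at 122, 61.9 and 134 CPM in ControlΔEC and 147, 152 and 164 CPM in Wt1KOΔEC. *Edn1* (0.54), *Angpt2* (0.44) and *Sele* (0.36 on the log2 scale) had 95% intervals that held 0.

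*Klf2*, *Klf4* and *Klf6* are also known as early response genes of cell isolation, so other genes of that response were counted beside them. Of 15 such genes, 14 had positive log2 fold changes and 7 an unadjusted p under 0.05 in that direction, with a median of 0.42. Over all genes, 7822 of 16296 were positive, 5.96% passed that limit in the same direction, and the median was -0.027. *Fos* was at 218, 197 and 255 CPM in ControlΔEC and 350, 332 and 410 CPM in Wt1KOΔEC, and *Junb* at 143, 125 and 99.8 CPM in ControlΔEC and 209, 218 and 208 CPM in Wt1KOΔEC. *Ier2*, *Fosb*, *Jun*, *Hspa1a* and *Hspa1b* had log2 fold changes of 0.74, 0.70, 0.49, 0.81 and 1.55, and *Dusp1* and *Atf3*, with 95% intervals that held 0, of 0.25 and 0.42. None of the 15 was a DEG with edgeR and 4 were with DESeq2, and their summed CPM was 2830 to 3530 in ControlΔEC and 3930 to 5020 in Wt1KOΔEC. The part of this response in the KLF levels was not tested. *Klf2*, *Klf4* and *Klf6* had log2 fold changes of -0.33, 0.05 and -0.04 in the same libraries.

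**Figure D5:**
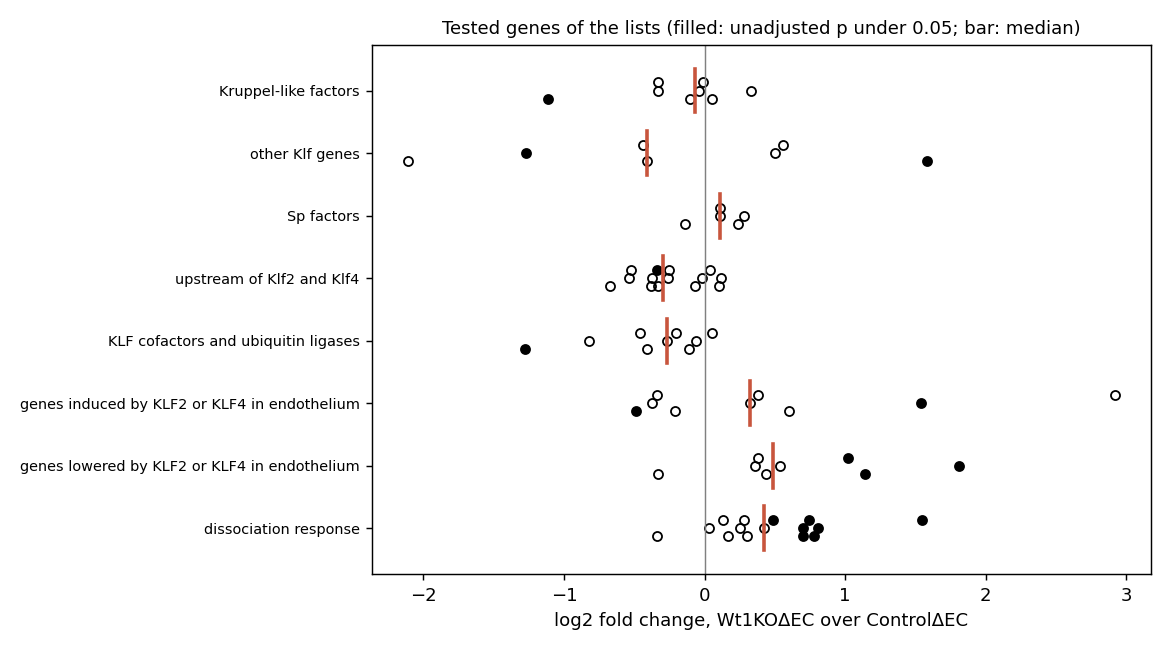
Log2 fold change of Wt1KOΔEC over ControlΔEC (x axis) for each tested gene of the KLF genes and 7 related lists, filled where the unadjusted p from edgeR was under 0.05, with a red bar at the median. Medians run from -0.41 for the other *Klf* genes to 0.49 for the genes that KLF2 or KLF4 lower, and filled points on the early response genes all lie above 0.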

How the data were processed

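RNA was sequenced from mGFP-sorted ECs with the SMART-seq2 protocol and Nextera XT. The authors mapped the reads with STAR 2.7.8a and estimated counts per gene with RSEM 1.3.0; the deposited values are expected counts rounded to whole numbers, without normalization. The paper's methods name GRCm39 and GENCODE vM27, whereas the submitters' processing notes list GRCm38; gene positions, exonic lengths and promoters were taken from GENCODE vM39 on GRCm39.

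Libraries were grouped by the genotype and replicate in their titles. A gene entered the test if 2 or more libraries held 10 or more counts for it. Testing used edgeR 4.0.16 in R 4.3.3 (TMM, quasi-likelihood F test, Benjamini-Hochberg adjustment), with DESeq2 1.42.0 and limma 3.58.1 (voom) as alternatives. Standard errors (SE) and intervals were derived from the F statistic. At these depths 3 counts made 0.0608 to 0.119 CPM, a floor that covers counting error only. The steps were tested on simulated counts.

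Named were the 8 KLF genes, the *Klf* genes and Sp factors, list genes with an unadjusted p under 0.05 or among the 4 most abundant of their list, the 3 genes of most similar profile, and markers by list. Endothelial, endocardial, lymphatic endothelial, epicardial, fibroblast, mural cell, cardiomyocyte, macrophage and erythroid markers were summed. The KLF genes and all lists were chosen with earlier results of these data known. The 4 antisense genes, *Ptgds*, and *Hbb-y*, *Hbb-bt*, *Alas2* and the other marker genes named singly, fall outside this rule and were chosen once their values were known. The labels name no batch, but their library codes differ in series between genotypes.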

Additional observations from a re-analysis of the deposited data

How the results depend on the processing

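The 12 DEGs among all genes became 599 with DESeq2 on the genes tested, 767 with DESeq2 on the whole table (chosen after seeing the data), 432 with edgeR's likelihood ratio test, 296 without a filter on low counts and 1652 at an unadjusted p with the fold limit, and in each of these 1 KLF gene, *Klf3*, was called (adjusted p = 0.00763 and 0.0118 with DESeq2, 0.0229 and 0.0106 with edgeR). The study's own DEGs came from DESeq2 with default settings and the same fold limit, not from edgeR. Of the settings here, DESeq2 on the whole table (349 higher and 418 lower) gave the numbers nearest to the study's. With at least 10 counts in every library there were 113 DEGs and 0 KLF genes. Leaving out 1 library gave 2 to 37 DEGs (4, 26 and 37 without ControlΔEC replicates 1, 2 and 3, and 3, 3 and 2 without Wt1KOΔEC replicates 1, 2 and 3) and 0 to 1 KLF genes, *Klf3* being called only without ControlΔEC replicate 3. The cause of these differences was not tested. No pairing by replicate number was seen. Deviations of same-numbered libraries correlated at 0.06, 0 and 0.02, and not every library correlated best with its own number. The paper's breeding gave both genotypes within a litter, and these correlations cannot tell whether same-numbered libraries shared a litter. With a replicate block there were 5 DEGs and 0 KLF genes. The position of *Klf3* in the order of levels went from 7 to 3 by plain CPM and by canonical transcript length (the latter chosen after seeing the data).

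*Klf2*, *Klf3* and *Klf10* kept their direction under all 18 alternatives. The log2 fold change changed sign for *Klf6* with limma-voom (0.01) and with the replicate block (0), for *Klf13* with upper-quartile scaling (0.01) and for *Klf4* by library size only (-0.10), a scaling that moved the median of all genes from -0.03 to -0.18 and the DEGs from 8 higher and 4 lower to 5 higher and 6 lower. Without 1 library in turn, it ranged from -0.09 to 0.14 for *Klf4*, -0.24 to 0.21 for *Klf6*, -0.24 to 0.03 for *Klf7*, -0.58 to 0.13 for *Klf9* and -0.18 to 0.15 for *Klf13*. With 3 libraries per genotype, an exact permutation test of a single gene cannot give a p below 0.1.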
